A study of Mus musculus with 2 samples.

Results

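The genes described here are 10 members of the BMP signalling chain in M/E cells, from receptors through SMAD proteins to the ID factors. They are the receptors Bmpr1a, Bmpr2 and Acvr1, the receptor-regulated SMADs Smad1 and Smad5, the inhibitory SMADs Smad6 and Smad7, and the target genes Id1, Id2 and Id3. They were taken by gene name from the array, on which 18 of 41174 probes carry one of these names and 27962 gene names occur. The members were chosen with their differences between these arrays already known, so their values are given as a description without a test. Of the 18 probes, 14 were measured on both arrays, 3 on the MEF2C-ASR array alone and 1 on neither. The measured probes of the inhibitory SMADs and ID factors were all higher with MEF2C-ASR. Those of the receptors and receptor-regulated SMADs, 7 probes of Bmpr2, Acvr1 and Smad5, were all slightly lower. Of these 7, 3 differed by less than the measurement error given by the scanner software. Bmpr1a alone among the receptors went the other way, and could be measured on the MEF2C-ASR array alone.

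M/E cells are mouse bone marrow cells immortalised by MLL/ENL, a fusion protein of acute leukaemia, and both groups have the genotype M/E-Mef2c del/-, which leaves no functional Mef2c. The control cells received the empty vector MYs-iPAC, and the other cells received MYs-pMef2cASR, which expresses a constitutively active MEF2C with altered histone deacetylase binding, called MEF2C-ASR here. It is a mutant form, so the comparison is not one of wild-type against absent Mef2c, and the labels do not give the number of clones or infections. Both populations were selected with puromycin, grown in medium with the cytokines IL6, GM-CSF and IL3 at 10 ng/ml and SCF at 100 ng/ml, and harvested 6, 24 and 48 h after seeding. The RNA of the 3 harvests was pooled, so each group is 1 array. Differences therefore have no replicate check, and "higher" and "lower" refer to these 2 arrays. In such bulk RNA, a change in the number of cells of a kind and a change in RNA per cell cannot be told apart.

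Bone morphogenetic proteins bind pairs of type I receptors, such as BMPR1A and ACVR1, and type II receptors, such as BMPR2. The type I kinase phosphorylates SMAD1 and SMAD5, which enter the nucleus with SMAD4 and activate genes including Id1, Id2 and Id3. SMAD6 and SMAD7 are themselves targets of the pathway and block it in a negative feedback. ID proteins lack a DNA-binding region and hold E proteins in complexes that cannot bind DNA. In blood cells, E proteins favour lymphoid differentiation, and ID1 and ID2 are found in myeloid progenitors.

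The sequences upstream of the start of transcription are shown for 3 members on which the results turn. These are Id3, which passed 2-fold, Id2, which was higher in each of its probes, and Bmpr1a, which passed 2-fold as a bound. They are the 250 bases before the RefSeq start in the mouse build GRCm38.p6, written 5′ to 3′ on the strand of the gene. They lie at chr4:136143572-136143821 on the plus strand for Id3, chr12:25096093-25096342 on the minus strand for Id2 and chr14:34502547-34502796 on the minus strand for Bmpr1a. Capitals mark 2 motifs on either strand, the GC-rich SMAD motif GGCGCC and the short SMAD element CAGAC, which reads GTCTG on the other strand.
Id3: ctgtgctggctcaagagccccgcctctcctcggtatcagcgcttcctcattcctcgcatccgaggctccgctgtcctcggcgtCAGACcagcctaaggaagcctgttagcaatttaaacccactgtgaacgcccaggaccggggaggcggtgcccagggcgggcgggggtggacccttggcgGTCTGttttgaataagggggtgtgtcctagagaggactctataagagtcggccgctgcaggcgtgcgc
Id2: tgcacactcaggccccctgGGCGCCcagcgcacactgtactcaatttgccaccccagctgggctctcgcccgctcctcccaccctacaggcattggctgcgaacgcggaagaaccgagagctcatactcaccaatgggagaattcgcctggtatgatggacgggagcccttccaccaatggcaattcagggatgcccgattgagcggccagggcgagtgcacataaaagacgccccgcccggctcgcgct
Bmpr1a: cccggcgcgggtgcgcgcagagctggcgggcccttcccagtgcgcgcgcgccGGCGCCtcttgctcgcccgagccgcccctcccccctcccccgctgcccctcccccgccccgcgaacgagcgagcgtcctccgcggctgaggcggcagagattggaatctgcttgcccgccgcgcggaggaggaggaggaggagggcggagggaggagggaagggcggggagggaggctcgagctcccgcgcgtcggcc

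Windows were searched for 8 member genes with 10 starts in all, and Id1 and Smad7 were not among them. Member starts on chromosome 18, where the Smad7 probe lies, were left out of the search. No such filter was applied to the windows of all genes used for comparison. The GC-rich motif was found before 4 of the 10 starts. Its first base lay 198 bases before the start of Bmpr1a, 105 before that of Bmpr2, 231 before that of Id2 and 19 before 1 of the Smad5 starts. Of all 32536 windows of the same length in the RefSeq table, 9.65% held it. The short element was found before 2 of the 10 starts, at 167 and 68 bases before the Id3 start and 21 bases before another Smad5 start, against 42.2% of all windows. The 2 motifs share no bases in the windows printed. The MEF2 motif was found in none of the 10 and in 2.89% of all windows. These windows are rich in G and C (78.8% for Bmpr1a, 62.8% each for Id2 and Id3), and a match describes letters, not a bound site.

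The arrays were read as processed signals, which are background-subtracted spot intensities in arbitrary units. A spot was well above background, by the flag of the scanner software, for 26054 of 43379 gene spots (60.1%) in the control and 29283 (67.5%) with MEF2C-ASR. The faintest such signal was 38.3 in the control and 20.0 with MEF2C-ASR, so faint transcripts could be seen more easily with MEF2C-ASR. Differences are log2 values, MEF2C-ASR minus control, after each array was set relative to its 75th percentile, so that a difference of 1 is 2-fold. Over the 24379 probes measured on both arrays the median difference was -0.02, and 46.3% were above 0. At least 2-fold higher were 391 probes (1.6%), and 435 (1.78%) were at least 2-fold lower. That split was 281 and 581 when the arrays were scaled by spike-in RNA, which moved the median to -0.17, and 248 and 142 over brighter probes. Probes printed 10 times gave a standard deviation of the difference between spots of 0.20 for signals under 100 and for signals of 100 to 1000, and of 0.04 for signals over 1000. This covers spotting alone, as the software errors given below cover the measurement of a spot, and neither covers variation between cultures.

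As checks of the labels, Mef2c read 795 in the control and 1969 with MEF2C-ASR (difference 1.34). Its second probe was not well above background in either group (0.68 for the mean over both probes with all probes kept), and the labels do not tell which part of the gene was deleted. Hprt, the transcript used by the study to normalise PCR, differed by 0.02 and changed sign with 3 other scalings, spike-in scaling among them. Among markers of myeloid progenitors, granulocytes and monocytes, 17 of 18 were measured, with a median difference of 0.52 and a summed signal of 737329 in the control and 918636 with MEF2C-ASR. Mpo, the peroxidase of neutrophil granules, and Csf1r, the M-CSF receptor, passed 2-fold, at 1.10 and 1.62. Markers of other cell types were partly measured. Endothelial markers were measured for 5 of 9 genes, with Cdh5, Kdr, Emcn and Tie1 not well above background and a summed signal of 721 in the control and 694 with MEF2C-ASR. Erythroid markers were measured for 5 of 7 (summed signal 510 and 460), and lymphoid markers for 3 of 10 (441 and 639, Cd3g and Ncr1 not well above background). The lymphoid median was 0.77, with the B cell receptor component Cd79a at 1.15 and the T cell receptor component Cd3e at 0.77. Stromal markers were measured for 4 of 10, with a median of 0.03 (-0.12 with spike-in scaling). Acta2 gave most of their summed signal (38020 and 48033). The 4 measured were Col1a1 at 0.89, Acta2 at 0.12, Col1a2 at -0.06 and Pdgfrb at -1.81. Dcn and Pdgfra were not well above background, and Lum, a matrix proteoglycan, had a bound of -3.46.

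Of the receptors, Bmpr1a, a type I receptor for BMP2 and BMP4, was faint in the control and clear with MEF2C-ASR. Its first probe, at chr14:31844499-31844558 in a mouse build that the sources used here do not give, read 15.6 ± 9.02 (software error) in the control and 284 ± 28.8 with MEF2C-ASR. The control signal was not well above background, so the difference is a bound, computed against the faintest level well above background on that array. The transcript was at least 7.61-fold higher with MEF2C-ASR, a bound of 2.93 on the log2 scale. Among the 3282 probes seen on the MEF2C-ASR array alone, 3.56% had a bound of at least 2-fold, and this was the third largest. Since the gene was chosen on this contrast, nothing is drawn from that rank. With normexp background correction, which raises faint signals by an offset, the bound was 1.77. The second probe, whose start lies 3351 bases from that of the first, at chr14:31847850-31847909, read 7.96 ± 7.92 and 57.3 ± 7.05. That control value is a surrogate which the software puts in place of a signal too dim to measure. The bound from this probe was 1.53-fold (0.62), under 2-fold. Both probes were thus above background with MEF2C-ASR and not in the control, with unequal bounds.

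Bmpr2, the type II receptor, was slightly lower in each of its probes. The first, at chr1:60128578-60128637, read 352 ± 36.1 in the control and 271 ± 27.5 with MEF2C-ASR, a difference of -0.34 ± 0.21. The second, at chr1:60126241-60126300, read 83.3 ± 11.7 and 58.3 ± 7.28 (-0.48 ± 0.27). Only the third, at chr1:60121592-60121651, is tied in the file to the RefSeq transcript of the gene, and it read 59.9 ± 9.90 and 54.9 ± 6.92, a difference of -0.09 ± 0.30 that lies within its error. The mean over the 3 was -0.30, or 1.23-fold lower.

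Acvr1, another type I receptor, known as ALK2, had 1 probe, at chr2:58447873-58447932. Its signals of 114 ± 13.8 and 106 ± 11.4 differed by -0.07 ± 0.23, which is within the software error. Over the 4 measured receptor probes, all of Bmpr2 and Acvr1, the median difference was -0.21. The receptor set was therefore uneven, with Bmpr1a higher by its bounds and Bmpr2 and Acvr1 at or slightly below their control signals.

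**Figure D1:**
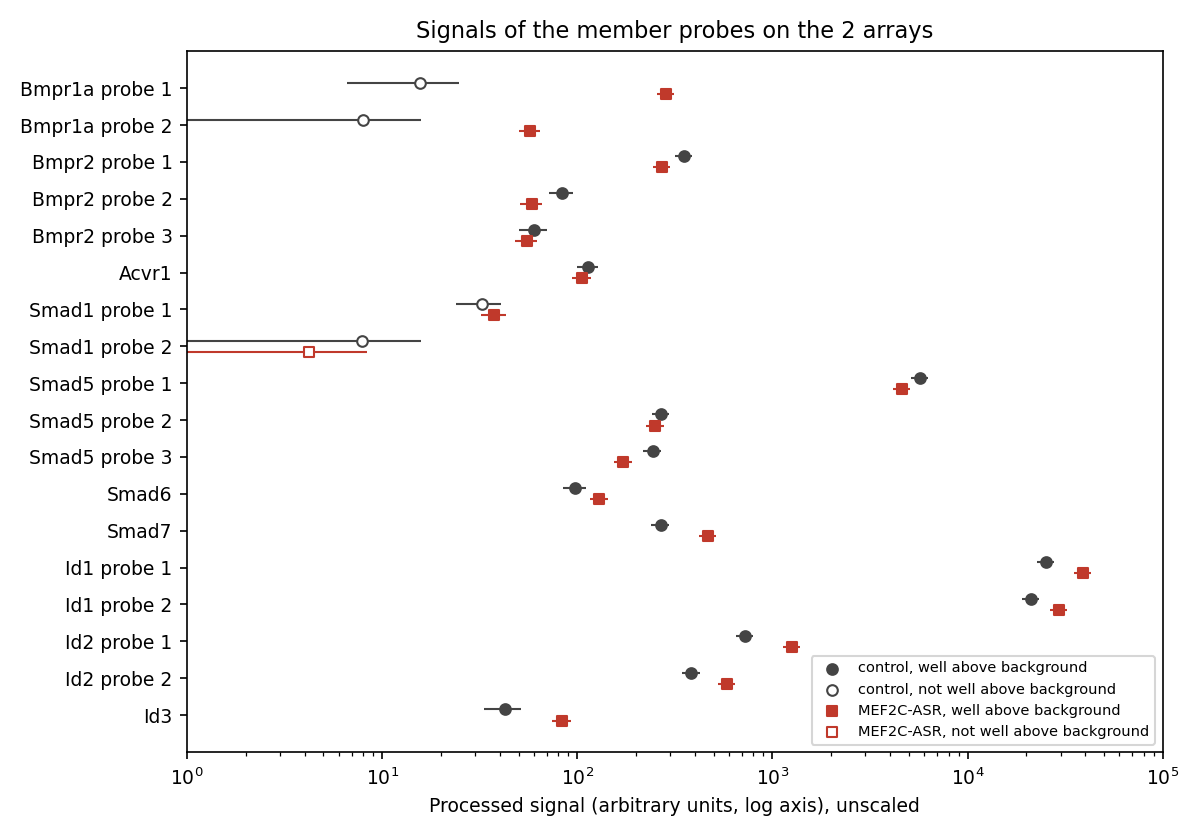
Processed signals of the 18 member probes in arbitrary units on a log axis, before scaling, with the control array as circles and the MEF2C-ASR array as squares. Bars are the scanner software's error (some run below the axis), open symbols are not well above background, and Bmpr1a probe 1 is open at 15.6 in the control and filled at 284 with MEF2C-ASR.

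Of the receptor-regulated SMADs, which carry the signal to the nucleus, Smad5 was measured by 3 probes and Smad1 was at the limit of detection. The first Smad5 probe, at chr13:55833898-55833957, read 5708 ± 571 in the control and 4624 ± 462 with MEF2C-ASR, a difference of -0.27 ± 0.20. The second, at chr13:55829345-55829404, read 269 ± 28.0 and 251 ± 25.5 (-0.06 ± 0.21), within its error. The third, at chr13:55830913-55830972, read 244 ± 25.6 and 172 ± 17.7 (-0.47 ± 0.21). All 3 were thus below 0, by unequal amounts, with a mean of -0.26.

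Smad1 had a probe of 57 bases at chr8:77879742-77879798, with a signal of 32.3 ± 8.44 in the control, not well above background, and 37.6 ± 5.64 with MEF2C-ASR. The bound was 1.01-fold, so no difference was detectable for this probe. The second Smad1 probe was not well above background in either group, where the software gave surrogates of 7.91 and 4.20. Of this class, Smad5 was therefore the gene that both arrays could measure.

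The inhibitory SMADs, the feedback inhibitors of the pathway, were both higher with MEF2C-ASR and both under 2-fold. Smad7, which blocks BMP and TGF-beta receptors alike, read 267 ± 27.8 in the control and 467 ± 46.9 with MEF2C-ASR, a difference of 0.84 ± 0.21 or 1.79-fold. Of all measured probes, 2.25% had a difference at or above this one. Smad6, which acts mainly on BMP receptors, had its probe at chr9:63982002-63982061 and read 97.4 ± 12.9 and 130 ± 13.8. Its difference of 0.45 ± 0.25, or 1.37-fold, was at or below that of 7.21% of measured probes. Each gene has 1 probe, so no second probe bears on either value.

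All 5 probes of the ID factors were higher with MEF2C-ASR, with a median difference of 0.66. Of all measured probes, 5.57% had a difference at least as large as that of the lowest ID probe. Since the genes were chosen on this contrast, that share is given as a scale for the values and not as support for them.

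Id1, an early BMP target, had the first of its probes at chr2:152478167-152478226, with signals of 25340 ± 2534 in the control and 38966 ± 3897 with MEF2C-ASR. The difference was 0.66 ± 0.20, or 1.58-fold. The second probe, at chr2:152478157-152478216, read 21046 ± 2105 and 29516 ± 2952 (0.52 ± 0.20, 1.44-fold). The probes share 50 bases and so do not measure the transcript independently. Both differences exceed the spotting standard deviation of 0.04 at signals over 1000. In that band 0.872% of probes were at least 2-fold higher, a size that neither Id1 probe reached. Over measured probes of all levels, 3.56% and 5.57% had differences at or above those of the first and second probe. The mean over both was 0.59, or 1.51-fold.

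Id2, which is needed for natural killer and innate lymphoid cells and is also found in myeloid cells, had 2 probes at separate places. The first, at chr12:22930541-22930600, read 720 ± 72.4 in the control and 1259 ± 126 with MEF2C-ASR, a difference of 0.84 ± 0.20 or 1.79-fold. The second spans chr12:22931820-22932167, a stretch of 348 bases, and read 384 ± 39.4 and 582 ± 58.4 (0.64 ± 0.21, 1.55-fold). These probes do not overlap, and their mean was 0.74, or 1.67-fold. At signals of 100 to 1000, 2.38% of measured probes were at least 2-fold higher, a size that neither Id2 probe reached. Over measured probes of all levels, 2.23% and 3.79% had differences at or above those of the first and second probe. The lymphoid markers had a median of 0.77 over the 3 that were measured, and their part in the Id2 values was not tested.

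Id3, a further BMP target, was faint, with a control signal of 42.4 ± 9.13, close to the limit of 38.3 for that array. It read 83.3 ± 9.35 with MEF2C-ASR from a probe spanning chr4:135522597-135522771, a stretch of 175 bases. The difference was 1.01 ± 0.35, or 2.01-fold, which made Id3 the single member measured on both arrays at 2-fold or more. It fell short of 2-fold with spike-in scaling (0.86), with the 75th percentile of probes well above background (0.97) and with normexp (0.48). At signals under 100, 1.83% of probes were at least 2-fold higher.

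**Figure D2:**
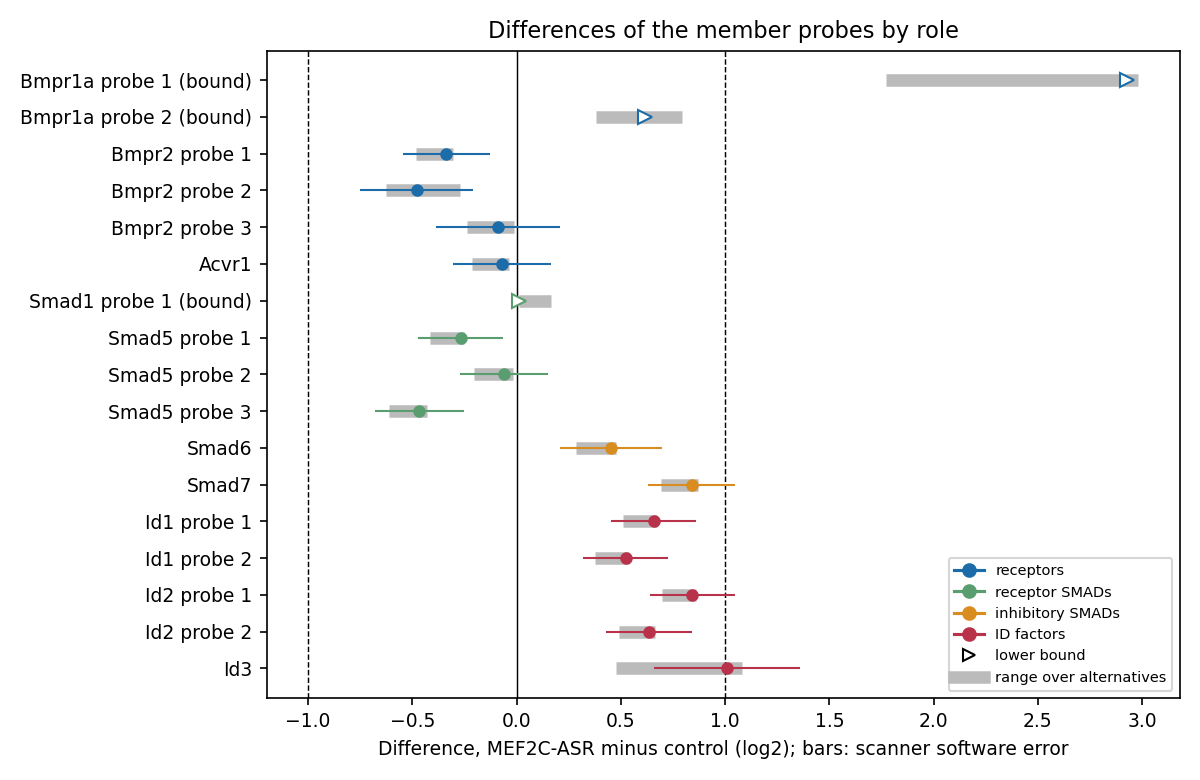
Differences of the member probes on the log2 scale (MEF2C-ASR minus control), by role, with bars for the software error, grey bands for the range over the alternative settings and triangles for lower bounds. The measured probes of inhibitory SMADs and ID factors lie between 0.45 and 1.01, those of receptors and receptor SMADs between -0.48 and -0.06, and dashed lines mark 2-fold.

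In all, 8 member genes were measured on both arrays, 5 above 0 and 3 below 0, with a median of 0.52 against -0.03 over all 16696 measured genes. Of the 8, 1 member gene was at least 2-fold higher, beside 1.75% of all measured genes. No member gene was at least 2-fold lower, beside 1.92% of all. Nothing is drawn from these shares, since the contrast was used to choose the genes. Against the software error, 7 of the 14 measured probes differed by more than 2 errors, 4 by 1 to 2 errors and 3 by less than 1, the last being the third Bmpr2 probe, Acvr1 and the second Smad5 probe. The same count was not made over all measured probes, so nothing is drawn from it about the members. The differences of the 14 measured probes kept their signs under the alternatives in which they were measured. Only the scalings and normexp could change these values, since the other alternatives select probes or spots, or use the same values. The Smad1 bound, at 0.010 on the log2 scale, was lost with spike-in scaling and with the 75th percentile of probes well above background, and with all probes kept Smad1 averaged -0.31 over its probes. With spike-in scaling the members' median was 0.37. The median of the myeloid markers, at 0.52, was as high as that of the members, and their part in the members' differences was not tested.

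**Figure D3:**
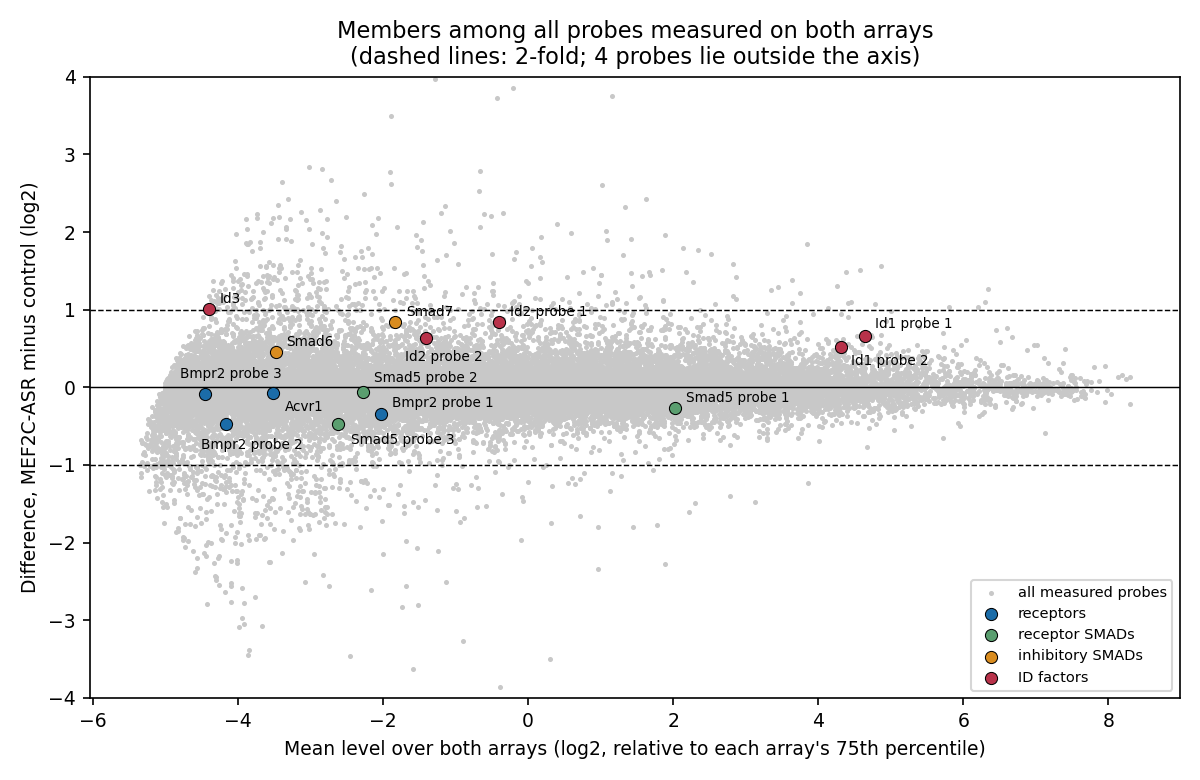
Difference against mean level (both log2, relative to the 75th percentile) for all 24379 measured probes in grey, with the 14 measured member probes in colour by role. Id3 lies on the 2-fold line at a low level, where the grey cloud is wide, and the Id1 probes lie at a high level, at 0.66 and 0.52, where it is narrow.

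Other genes of the pathway, in 8 lists of 95 genes, differed little as lists. Of the 95, 58 were measured on both arrays, with none at least 2-fold higher and 1, Bambi, at least 2-fold lower, beside 1.75% and 1.92% of all genes. A further 10 were seen on 1 array alone, 26 were not well above background, and the 1 spot of Gdf3 carried an outlier flag on the MEF2C-ASR array and was left out. The median of the 58 was 0.09, and -0.05 with spike-in scaling and -0.07 with all probes kept, so it has no settled sign.

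Bambi encodes a pseudoreceptor, a membrane protein like a type I receptor without a kinase, which dampens TGF-beta family signals and is itself induced by them. Its measured probe was printed on 9 spots in use, with signals from 2942 to 3214 in the control and from 1206 to 1330 with MEF2C-ASR, ranges that do not overlap. The mean signals were 3047 and 1258, a difference of -1.24, or 2.36-fold lower, and the alternatives gave -1.39 to -1.06. A second probe was not well above background. This feedback inhibitor was therefore lower on the array where Smad6 and Smad7 were higher.

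The ligands were mostly faint. Of 14 BMP ligands 6 were measured, with a median of 0.08 (-0.07 with spike-in scaling), among them Bmp8a at 0.19, Gdf5 at -0.14 and Gdf7 at -0.09. Bmp2 and Bmp6 were not well above background in either group. Of 13 TGF-beta and activin ligands 8 were measured (median -0.04, and 0.15 over brighter probes). Inhba, a subunit of activin A, read 1845 and 2853 (0.67), Tgfb1 differed by 0.15 and the stress-induced Gdf15 by -0.30. The other measured ligands of this list were Tgfb3 at -0.78, Inhbb at 0.63, Nodal at -0.46, Lefty2 at -0.24 and Tgfb2 at 0.22. Mstn, which encodes myostatin, read 160 in the control and 4.18 with MEF2C-ASR, where it was not well above background. It was at least 7.83-fold lower (a bound of -2.97, and -1.61 with normexp), a kind of bound that 96.2% of the 238 probes seen on the control array alone also had at 2-fold or more. Among 13 extracellular BMP antagonists 6 were measured, with a median of -0.07. Fstl3, a follistatin-like protein, differed by 0.11 (-0.04 with spike-in scaling), chordin (Chrd) by -0.01 with a sign that turned in 3 settings, and Nbl1 by -0.12. Twsg1, Nog and Sost were the other members measured, and Fst and Grem1 were not well above background.

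Of the other receptors and co-receptors 6 of 14 were measured, with a median of 0.29 and of 0.08 with normexp. Acvr1b, the activin receptor ALK4, read 1048 and 1469 (0.52), while the TGF-beta receptor Tgfbr1 differed by 0.08 (-0.07 with spike-in scaling). Beside Bambi, the other measured genes of this list were Tgfbr2 at 0.62 (probes at 0.38 and 0.86), Tgfbr3 at 0.51 and Acvr2b at 0.02. Bmpr1b, the other type I BMP receptor, was not well above background in either group (7.99 and 4.31), and neither was Acvrl1 (7.83 and 11.7). The other SMADs included Smad4, the shared partner, which read 5800 and 6173 with its brightest probe (mean difference 0.10, and -0.05 with spike-in scaling). The TGF-beta SMADs Smad2 and Smad3 differed by 0.22 and -0.17. All 17 SMAD regulators were measured, with a median of 0.12 (-0.02 with spike-in scaling) and none past 2-fold. Among them Stub1, a ubiquitin ligase, differed by -0.14, Tob2, an antiproliferative protein, by 0.30 (-0.19 with all probes kept) and the phosphatase Ppm1a by 0.05 (-0.09 with spike-in scaling).

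The other BMP and SMAD target genes, a list that includes Id4, were mostly not measured on both arrays. Of the 11 genes 4 were measured, with a median of -0.07 (0.03 over brighter probes). Msx1, a homeobox target of BMP, differed by -0.06 and Tnfrsf11b, the decoy receptor osteoprotegerin, by -0.05 with a sign that turned in 2 settings. Runx2, a regulator of bone formation, differed by -0.19 with probes from -1.10 to 0.19, so its value depends on the probe (0.19 with the brightest). Id4, the remaining ID gene, was not well above background in either group (8.76 and 4.71), and neither were Msx2, Hey1 and Hamp.

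The E proteins, the partners that ID factors hold back, were uneven. Of 9 E proteins and haematopoietic partners 8 were measured, with a median of 0.02 that was -0.13 with spike-in scaling. The 3 E protein genes are described after their values were seen. Tcf3, which encodes E2A, read 7856 and 6647 with its brightest probe, a mean difference of -0.26. Tcf4, which encodes E2-2, read 1300 and 1056 with its brightest probe, a mean difference of -0.36 (probes at -0.45 and -0.26). Tcf12, which encodes HEB, read 5720 and 8642 with its brightest probe, a mean difference of 0.50 (probes from 0.11 to 0.67). The alternatives kept these signs, with ranges of -0.41 to -0.21, -0.75 to -0.26 and 0.35 to 0.63. Of the partners, Lmo2 was higher at 0.45, Ldb1 differed by -0.15, and Lyl1 by 0.09 (-0.06 with spike-in scaling). Tal1 was not well above background.

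**Figure D4:**
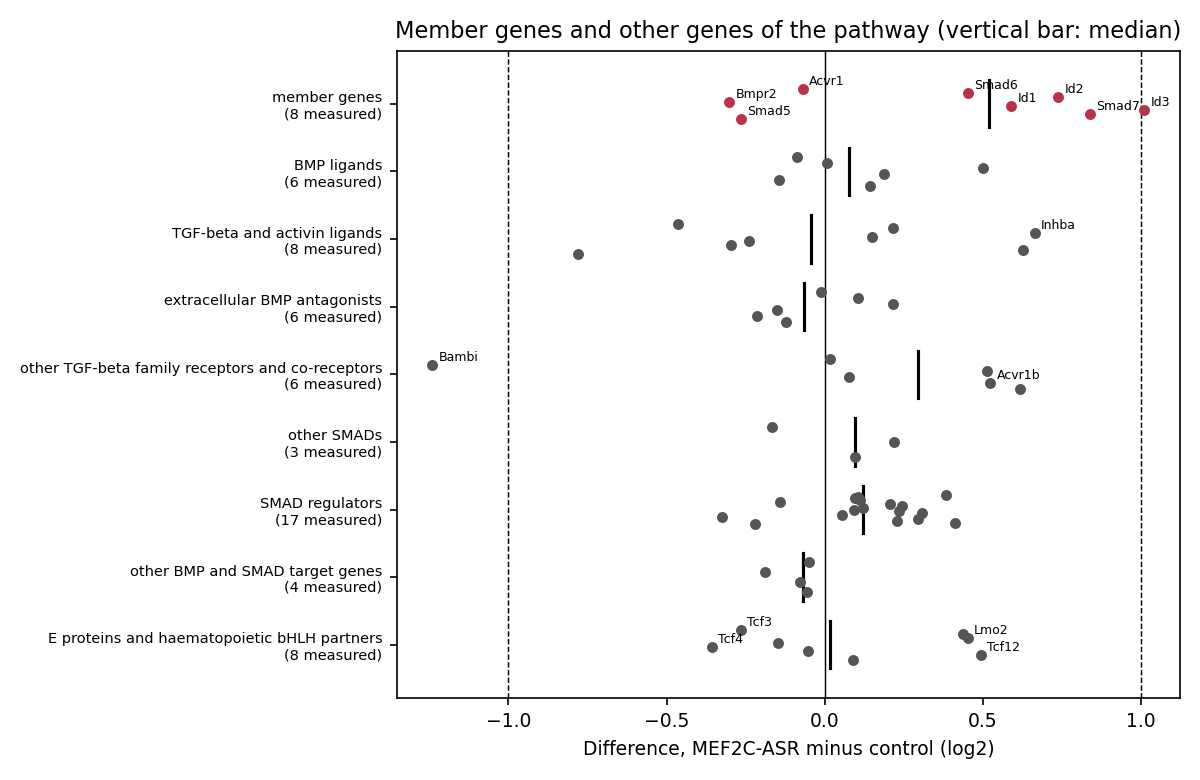
Differences on the log2 scale (MEF2C-ASR minus control) of the 8 measured member genes in red and of the measured genes of the 8 pathway lists in grey, 1 point per gene, spread vertically for legibility, with a bar at each median. The members' median is 0.52, those of the lists lie between -0.07 and 0.29, Bambi at -1.24 is the single pathway gene past the dashed 2-fold line on the lower side, and Id3 at 1.01 is the single member at 2-fold.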

How the data were processed

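Gene expression was measured on 2 one-colour Agilent arrays, each with 1 pooled RNA. The deposited values are intensity values, made per the file headers with Agilent Feature Extraction 9.5.1.1, which subtracted background, put surrogates in place of undetectable signals and set the background and outlier flags. The deposited p-value of each spot against background was not used for a call. The headers give 1 slide and 1 scan for both. The deposited value table equals the processed signals (largest relative difference 0, column medians 85.8 and 83.2 on a linear scale), so no centring had been applied. Its direction does not arise, since it holds single-channel signals.

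Processed signals were set to log2 minus the array's 75th percentile over 43379 non-control spots (signals of 1272 and 1240). Spots with an outlier flag on either array were left out (365), no spot was saturated, and spots of a probe were averaged. A probe was measured where it was well above background on both arrays. Where it was so on 1 array, a bound was formed: the level there minus either the probe's level on the other array or the faintest level counted as well above background there (-5.05 control, -5.96 MEF2C-ASR), whichever was higher. A gene's value is the mean over its measured probes, and it counts past 2-fold where they share a sign. With 1 array per group no test was possible, and a rule of 2-fold was used. The errors of differences combine the software errors of both signals, and the spotting error comes from 150 repeated probes. The number of arrays limits the precision.

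Members and lists were chosen with earlier results of these data known. All members are named. From each pathway list, members past 2-fold are named, and the 3 brightest measured members where fewer than 3 passed. Other names were chosen after the values were seen. Listed genes were matched to the RefSeq table of GRCm38.p6 by accession, symbol or older symbol, which also supplied promoter windows. The build behind the probes' coordinates is not given in the sources here, so probes were not placed in exons or UTRs.

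Alternatives were scaling by spike-in spots (E1A), the median, the 75th percentile of probes well above background, quantiles or removal of the intensity trend, normexp (offset 50) in limma 3.58.1, all probes kept, probes above the 25th percentile of level, spots with flagged background left out, the brightest probe, and the value table. The normexp fit failed on the control array until spots with a flagged background (687 control, 916 MEF2C-ASR) were given their array's median background, a step chosen after seeing the data. The steps were checked on simulated arrays built from the control array. Only probes of higher signal were shifted there, by more than 2-fold. The check therefore does not cover faint probes, smaller differences or bounds. Python 3.11.15, pandas 2.3.3, numpy 2.4.6, statsmodels 0.14.6, matplotlib 3.10.9 and R 4.3.3 were used.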

Additional observations from a re-analysis of the deposited data

How the results depend on the processing

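The differences of the 14 measured member probes kept their signs under the alternatives in which they were measured. Only the scalings and normexp could change the value of a measured member probe. The other alternatives select probes or spots, or use the same values, so they could not turn a sign. A bound is formed only where it is above 0, so its sign says nothing about stability. The Smad1 bound was lost with spike-in scaling and with the 75th percentile of probes well above background, and with all probes kept Smad1 stood at -0.31. The counts past 2-fold depended on the setting. The number of member genes at least 2-fold higher was 1 in the reported setting, 0 with spike-in scaling, 0 with the 75th percentile of probes well above background, 0 with normexp and 0 with brighter probes alone, where Id3 is left out, and 2 with all probes kept, where Bmpr1a joins Id3. No member gene was at least 2-fold lower in any setting. Over all probes, 391 were at least 2-fold higher and 435 lower, against 208 and 168 with normexp, 1314 and 1444 with all probes kept, and 248 and 142 with brighter probes alone. The member genes' differences ranged from -0.45 to -0.21 for Bmpr2, -0.22 to -0.04 for Acvr1, -0.41 to -0.24 for Smad5, 0.28 to 0.48 for Smad6, 0.69 to 0.87 for Smad7, 0.44 to 0.66 for Id1, 0.59 to 0.84 for Id2 and 0.48 to 1.08 for Id3. The bounds of Bmpr1a ranged from 1.77 to 2.98 and from 0.38 to 0.79. The normexp offset draws faint signals together by its construction; for the other settings the cause was not tested. No paired analysis was possible because each group is 1 array, and no replicate could be left out. Signal over background limits Bmpr1a in the control, Smad1 in the control and in its second probe, and Id3.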
